A study of Mus musculus with 12 samples.

Results

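The complement system is represented here by 9 genes of the 23284 in the count table of mouse mandibular condylar fibrocartilage, namely C1qa, C1qb, C1qc, C2, C3, C4b, Cfb, Cd55 and Cd59a. They were taken by gene symbol, and all 9 were found and had enough counts to be tested. C1qa, C1qb, C1qc and Cd59a were picked because they differed with estradiol or genotype in these same libraries, so their values are given as a description, without p-values. C3 was picked as an estrogen target, and the remaining genes complete the early steps of the cascade and its membrane regulators. The tissue is the thin covering of the lower jaw's condyle, and all of its cells were taken. All mice were C57BL/6 females, ovariectomized at 16 weeks of age, given a pellet for 1 week and sampled at 17 weeks. The 4 groups were ERalphaKO mice given E2 (17β-estradiol, 3 libraries), ERalphaKO mice given placebo (4 libraries), WT mice given E2 (3 libraries) and WT mice given placebo (2 libraries). The E2 pellet held 0.01 mg and was made for release over 60 days. ERalphaKO is a knockout of estrogen receptor alpha whose allele the labels do not give, and it is not stated that each replicate was its own animal, so the p-values measure variation among these libraries, which may be partly technical.

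Complement is a set of secreted proteins that cut and activate one another in order on a target surface. In the classical pathway, C1q binds the target and the attached proteases C1r and C1s cut C4 and then C2, which together form an enzyme that cuts C3. In the alternative pathway, factor B joins with deposited C3 to form a second enzyme that cuts more C3, and CD55 and CD59 are membrane proteins that protect host cells from these steps. Macrophages are a known source of C1q in tissues, while the liver makes most of the circulating C3, and in the rodent uterus C3 is a well-known gene raised by estrogen.

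Libraries held 9696434 to 28750636 counts, so 3 counts corresponded to 0.110 to 0.315 CPM (counts scaled to a common library size, with the trimmed mean of M values as the scaling). Esr1, which encodes estrogen receptor alpha, gave 3.65 to 5.78 CPM in the 7 ERalphaKO libraries and 8.52 to 17.5 CPM in the 5 WT libraries, without overlap. Markers of chondrocytes (10 genes) summed to 4886 to 25060 CPM and markers of fibrous tissue (12 genes) to 97380 to 148600 CPM in single libraries, so the labelled tissue's defining genes were present. Bone markers were counted as well, those of osteoblasts (10 genes) at 10620 to 17300 CPM and those of osteoclasts (6 genes) at 6734 to 10160 CPM. Markers of hepatocytes (7 genes) summed to at most 2.49 CPM. Of the marker lists, the libraries stood furthest apart in 14 granulocyte markers, which summed to 18.5 to 7288 CPM in ERalphaKO E2, 28.3 to 17310 CPM in ERalphaKO placebo, 3.77 to 1146 CPM in WT E2 and 74.0 to 900.2 CPM in WT placebo. Markers of skeletal muscle (15 genes) also varied, from 9.27 to 6952 CPM. Lymphocyte markers (9 genes) summed to 15.5 to 117 CPM in ERalphaKO E2 and 81.7 to 199 CPM in ERalphaKO placebo. They summed to 11.8 to 21.0 CPM in WT E2 and 10.4 to 14.3 CPM in WT placebo. The 2 highest granulocyte sums belonged to ERalphaKO placebo replicate 3 and ERalphaKO E2 replicate 1, and results that rest on them are given with and without them.

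The promoters of 3 of the genes are shown because C1qb and C1qc varied together, as described below, while C3 varied the most between libraries. Of the 9 genes, 5 had an entry in the RefSeq promoter table of build GRCm38.p6 (Cd55, Cd59a, C1qb, C1qc and C3). Each sequence runs 5′ to 3′ from 250 bases before the gene's start to 50 bases after it, and all 3 genes lie on the minus strand, at chr4:136886151-136886450 for C1qb, chr4:136892865-136893164 for C1qc and chr17:57228087-57228386 for C3. Capitals mark matches, on either strand, to the motifs named after the sequences.
C1qb: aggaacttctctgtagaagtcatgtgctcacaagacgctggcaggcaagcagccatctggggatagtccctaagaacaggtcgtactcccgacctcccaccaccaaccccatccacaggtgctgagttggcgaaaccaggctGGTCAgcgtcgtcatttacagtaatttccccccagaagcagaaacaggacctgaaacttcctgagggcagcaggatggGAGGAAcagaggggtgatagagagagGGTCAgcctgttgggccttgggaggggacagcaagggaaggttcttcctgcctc
C1qc: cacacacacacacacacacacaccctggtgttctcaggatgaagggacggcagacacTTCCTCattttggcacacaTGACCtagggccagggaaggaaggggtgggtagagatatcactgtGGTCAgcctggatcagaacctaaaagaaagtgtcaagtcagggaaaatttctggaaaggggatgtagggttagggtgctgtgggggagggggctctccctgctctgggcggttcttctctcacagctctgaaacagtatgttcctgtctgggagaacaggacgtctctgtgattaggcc
C3: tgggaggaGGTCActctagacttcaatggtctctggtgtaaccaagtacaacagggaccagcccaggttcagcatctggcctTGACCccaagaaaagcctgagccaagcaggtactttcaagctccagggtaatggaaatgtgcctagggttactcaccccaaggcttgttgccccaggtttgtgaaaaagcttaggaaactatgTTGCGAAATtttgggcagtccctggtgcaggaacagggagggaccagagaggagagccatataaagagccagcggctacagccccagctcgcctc
The full estrogen response element GGTCANNNTGACC was found in none of the 5 promoters and in 0.07% of all 32851 promoters in the table. Its half-site GGTCA, which is contained in the full element, was found 2 times in each of the 3 promoters shown and in neither Cd55 nor Cd59a, while 40.5% of all promoters hold it. The half-sites began at positions -108 and -4 in C1qb, -174 and -129 in C1qc, and -242 and -168 in C3, where -1 is the base before the gene's start. A core of the myeloid factor PU.1, GAGGAA, was found 1 time each in C1qb (-30), C1qc (-193) and Cd59a (-62), against 28.3% of all promoters. A C/EBP motif, TTNNGNAAT, was found 1 time in C3 (-45), against 11.5% of all promoters. The AP-1 motif TGANTCA had no match in the 5 windows, and 7.81% of all promoters hold it. These matches are descriptions of letters in a window and were not tested for binding. In the RefSeq gene order C1qb, C1qc and C1qa are direct neighbours on chromosome 4, and Cfb and C2 on chromosome 17.

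On average, C1q transcripts were higher in WT mice given E2 than in any other group, and Cd59a was lower there than in any other group. Across all genes tested by edgeR's quasi-likelihood test, with Benjamini-Hochberg adjustment over 14832 genes and a threshold of 0.05, 1 of the 9 genes was called for E2 against placebo in WT, where 0.458% of all genes were called. That gene was Cd59a, in the lower direction, in which 0.0876% of all genes were called, while none was called higher, where the background was 0.371%. For ERalphaKO against WT under E2, 1 of the 9 was called, again Cd59a, this time higher, where 1.1% of all genes were called in either direction and 0.452% as higher. No member was called for E2 in ERalphaKO (background 0%; 1 of 9 with an unadjusted p under 0.05, against 5.7% of all genes; 0 by DESeq2, background 0.0337%), for ERalphaKO against WT under placebo (background 0.0135%; 1 of 9, against 8.93%; 0 by DESeq2, background 1.01%), or for the E2 effect in ERalphaKO minus that in WT (background 0.0539%; 4 of 9, against 6.78%; 1 by DESeq2, background 0.688%). DESeq2 called 3 of the 9 for E2 in WT, with a background of 1.67%, and 4 of the 9 for genotype under E2, with a background of 3.35%. Because the genes were chosen on these contrasts, nothing is read from these counts. Without WT E2 replicate 1, ERalphaKO placebo replicate 4 or any 1 ERalphaKO E2 replicate, 0 members were called for E2 in WT (background 0.135% to 0.25%). Without WT E2 replicate 2 there were 2 (0.886%). Leaving out a WT placebo library leaves 1 in that group, so no count is given. For genotype under E2 the count was 4 without WT E2 replicate 2 (1.6%) and 3 without ERalphaKO placebo replicate 3 (1.4%). For the difference of the E2 effect it was 1 without ERalphaKO placebo replicate 2 (0.0609%).

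**Figure D1:**
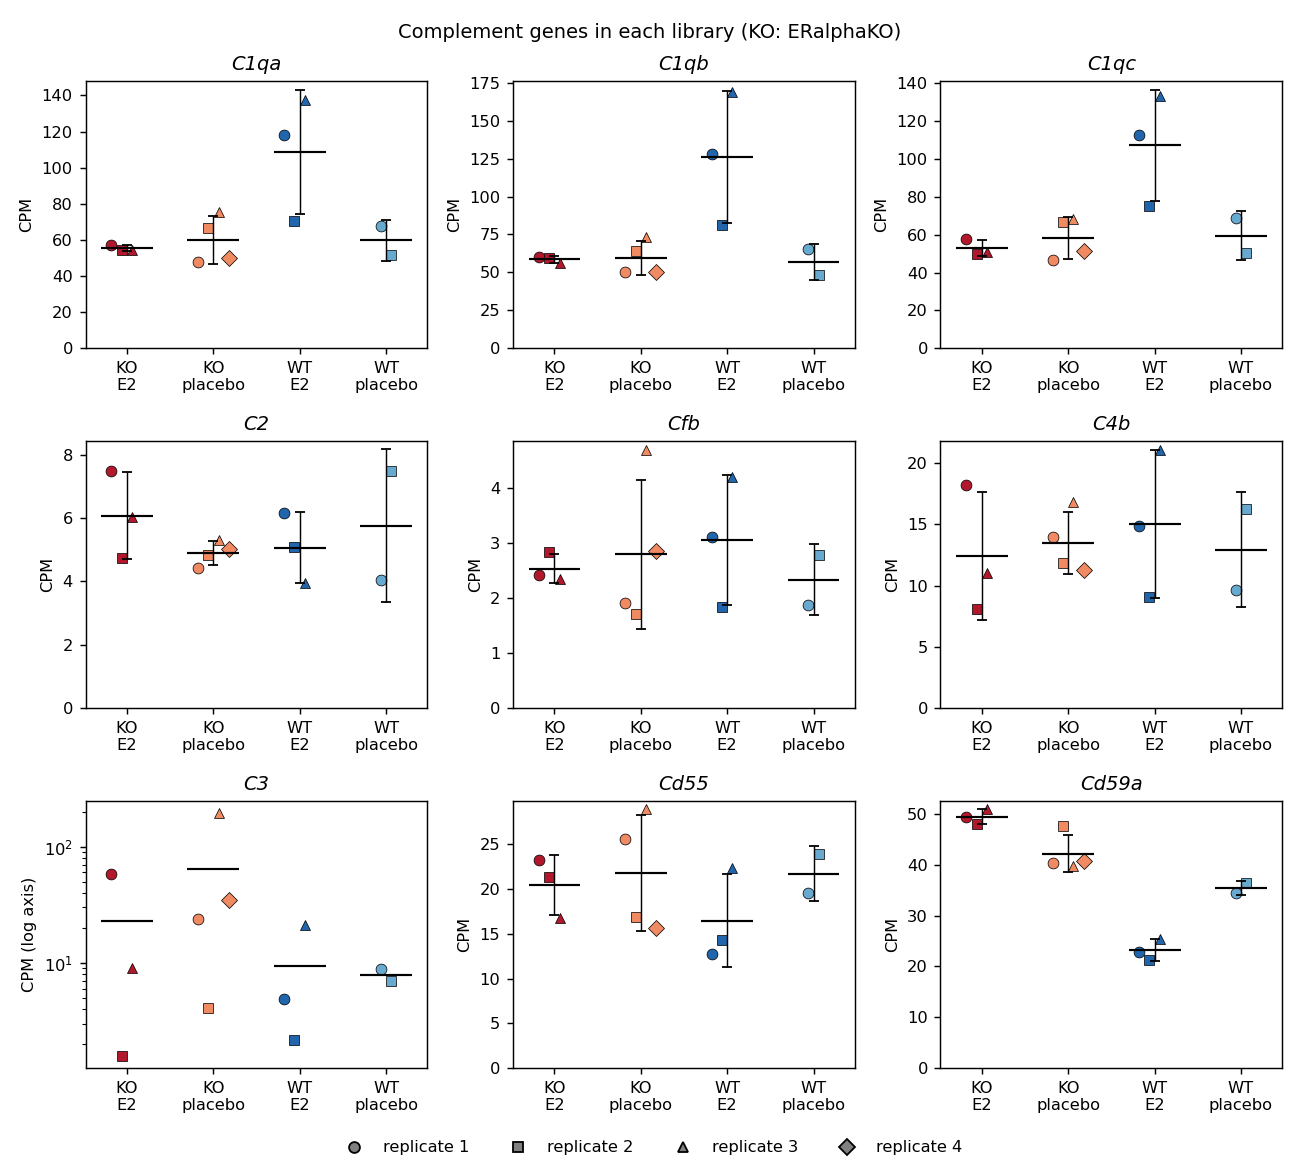
Level of each of the 9 complement genes in CPM (vertical axes, from 0; log axis for C3) in the 12 libraries by group, with 1 point per library, a line at the group mean and, outside the C3 panel, an error bar of 1 SD. The 3 C1q genes reached 70.3 to 169 CPM in WT E2 and stayed at or below 75.4 CPM in the other groups, and Cd59a lay at 21.3 to 25.5 CPM in WT E2 and above 34 CPM elsewhere.

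C1qa, C1qb and C1qc encode the 3 chains of C1q, the recognition protein that starts the classical pathway. C1qa had 57.1, 54.2 and 54.3 CPM in ERalphaKO E2 replicates 1 to 3, 47.6, 66.6, 75.4 and 49.8 CPM in ERalphaKO placebo replicates 1 to 4, 118, 70.3 and 137 CPM in WT E2 replicates 1 to 3, and 67.6 and 51.7 CPM in WT placebo replicates 1 and 2. WT E2 replicates 1 and 3 were the 2 highest libraries of the 12, and WT E2 replicate 2 lay just above the higher WT placebo library and within the ERalphaKO placebo range. C1qb had 60.5, 59.3 and 56.0 CPM in ERalphaKO E2, 50.01, 64.1, 73.7 and 50.3 CPM in ERalphaKO placebo, 128, 81.5 and 169 CPM in WT E2, and 65.2 and 48.5 CPM in WT placebo. For this chain all 3 WT E2 libraries were above the other 9. C1qc had 57.6, 49.9 and 50.7 CPM in ERalphaKO E2, 46.6, 66.9, 68.3 and 51.4 CPM in ERalphaKO placebo, 113, 75.3 and 134 CPM in WT E2, and 68.7 and 50.4 CPM in WT placebo, again with all 3 WT E2 libraries on top.

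As group means, C1qb stood at 126 ± 43.9 CPM in WT E2 and 56.8 ± 11.8 CPM in WT placebo (SD, n = 3 and 2), a log2 fold change of 1.15 ± 0.28 (SE of the edgeR fit). The same comparison gave 0.87 ± 0.27 for C1qa and 0.85 ± 0.24 for C1qc. In ERalphaKO, E2 against placebo gave -0.12 ± 0.22 for C1qa, -0.02 ± 0.22 for C1qb and -0.14 ± 0.20 for C1qc, with overlapping libraries for all 3. Between genotypes under placebo the log2 fold changes were 0.01 ± 0.25, 0.07 ± 0.25 and -0.03 ± 0.23 for C1qa, C1qb and C1qc, each smaller than its error. Under E2 they were -0.98 ± 0.24, -1.11 ± 0.24 and -1.02 ± 0.22, and every ERalphaKO library lay below every WT library. The E2 effect in ERalphaKO minus that in WT was -0.98 ± 0.35, -1.18 ± 0.35 and -0.99 ± 0.32 on the log2 scale. Leaving out single libraries moved the E2 fold change in WT between 0.66 and 1.10 for C1qa, 0.88 and 1.39 for C1qb, and 0.64 and 1.09 for C1qc.

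The 3 chains kept nearly constant proportions. Over the 12 libraries the difference in log2 CPM varied with an SD of 0.117 between C1qa and C1qb, 0.0706 between C1qa and C1qc, and 0.130 between C1qb and C1qc. Between C1qa and the members that are no C1q chain, the SD was 0.475 to 2.06. The count ratio of C1qb to C1qa was 1.06, 1.09 and 1.03 in ERalphaKO E2, 1.05, 0.963, 0.976 and 1.01 in ERalphaKO placebo, 1.08, 1.16 and 1.23 in WT E2, and 0.964 and 0.937 in WT placebo. The WT E2 ratios were above both WT placebo ratios. For C1qc to C1qa the ratios overlapped, at 0.954 to 1.07 in WT E2 and 0.974 to 1.02 in WT placebo.

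Most macrophage and endothelial markers had log2 fold changes in the direction of C1q for E2 in WT and between genotypes under E2. The summed levels of both lists overlapped between the groups. Of 18 macrophage markers, a list without complement genes, 16 had positive log2 fold changes for E2 in WT, with a median of 0.51 against 0.00 over all genes. Between genotypes under E2, 2 of the 18 were positive, with a median of -0.55. For E2 in ERalphaKO the median was -0.06 and for genotype under placebo 0.02. Siglec1, a lectin of tissue macrophages named here after its values were seen, was called by edgeR both for the E2 comparison in WT (2.18 ± 0.31, adjusted p = 0.0172) and between genotypes under E2 (-2.90 ± 0.28, adjusted p = 0.000639). Cx3cr1, the fractalkine receptor and also named after its values were seen, was called for genotype under E2 (-1.59 ± 0.27, adjusted p = 0.0182 by edgeR). The summed level of the list was 1359 to 2354 CPM in ERalphaKO E2, 1486 to 3201 CPM in ERalphaKO placebo, 1601 to 2074 CPM in WT E2 and 1329 to 1623 CPM in WT placebo, and no marker was at 0 in both groups of a contrast. The mean log2 CPM of the list was 5.91, 5.41 and 5.99 in WT E2 and 5.31 and 5.01 in WT placebo, higher in all 3 E2 libraries. With that mean as a covariate in the fit, the E2 log2 fold change in WT was -0.01 for C1qa, 0.29 for C1qb and 0.12 for C1qc, and the genotype difference under E2 was -0.08, -0.21 and -0.27. The mean log2 CPM of the C1q genes minus that of the macrophage list was 0.59, 0.73 and 0.59 in ERalphaKO E2, 0.40, 0.86, 0.64 and 0.55 in ERalphaKO placebo, 0.99, 0.83 and 1.198 in WT E2, and 0.76 and 0.64 in WT placebo. The WT E2 libraries did not overlap those of WT placebo or ERalphaKO E2, and 1 ERalphaKO placebo library lay within their range. The summed C1q level over the summed macrophage level averaged 0.178 ± 0.0383 in WT E2 and 0.119 ± 0.00764 in WT placebo, and without the marker Lyz2 0.213 ± 0.0402 in WT E2 and 0.146 ± 0.0157 in WT placebo (SD, n = 3 and 2). Of 12 endothelial markers, 11 were positive for E2 in WT (median 0.37), 9 for E2 in ERalphaKO (0.10), 7 for genotype under placebo (0.03) and 0 for genotype under E2 (-0.20), none called by edgeR. Their summed level was 490.0 to 528 CPM in ERalphaKO E2, 445 to 512 CPM in ERalphaKO placebo, 414 to 719.8 CPM in WT E2 and 451 to 508 CPM in WT placebo, and their part in the C1q level was not tested. The shift between genotypes under E2 was not particular to these lists. There, 0 of 9 chondrocyte markers tested were positive (median -1.11) and 0 of 14 skeletal muscle markers (-4.11). For E2 in WT, 4 of the 9 (-0.06) and 1 of the 14 (-0.88) were positive. Chondrocyte markers summed to 4886 to 8340 CPM in ERalphaKO E2 and 9765 to 25060 CPM in WT E2. In bulk tissue, fewer cells of a type and less RNA per cell cannot be told apart.

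**Figure D2:**
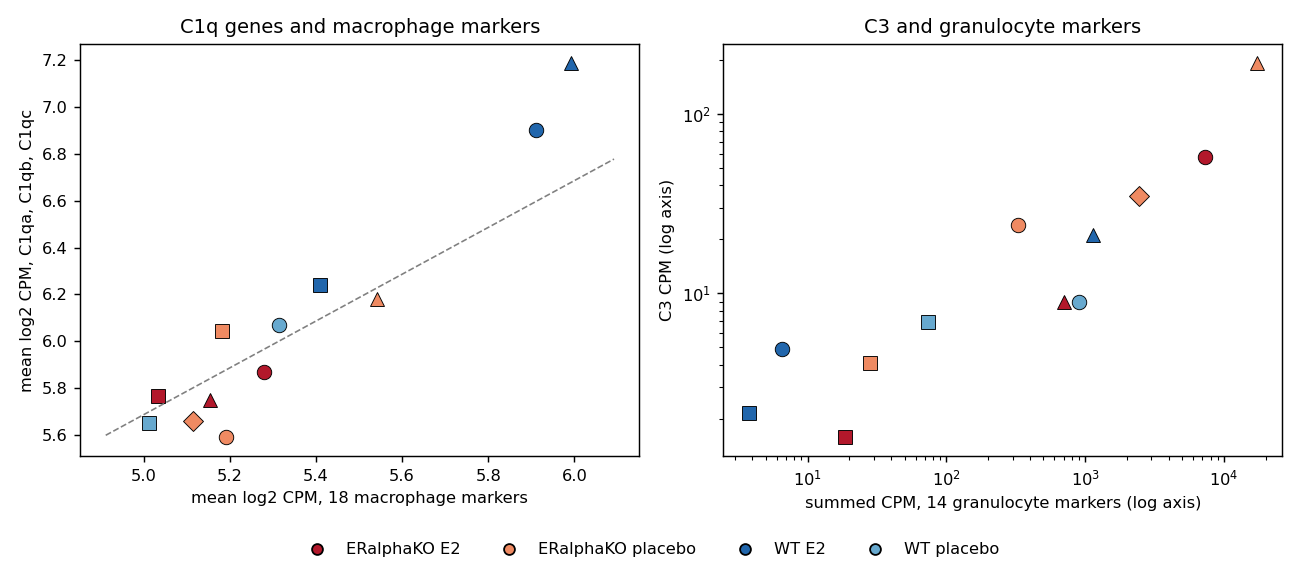
Each point is 1 library, coloured by group and shaped by replicate number (circle 1, square 2, triangle 3, diamond 4). Left, mean log2 CPM of the 3 C1q genes against mean log2 CPM of 18 macrophage markers, with a dashed line of equal change at the median offset. WT E2 replicates 1 and 3 lie at the upper right, while WT E2 replicate 2 has a lower macrophage mean (5.41) than ERalphaKO placebo replicate 3 (5.54). Right, C3 against the summed level of 14 granulocyte markers, both in CPM on log axes, where ERalphaKO placebo replicate 3 has the highest value of both.

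Genes were ranked by how closely they followed the mean of the 3 C1q genes, as the SD over 12 libraries of the difference in log2 CPM, among 10610 genes with a mean of at least 5 CPM, without members and predicted genes. The closest were Slamf9, a receptor of the SLAM family (SD 0.121), P2ry6, a receptor for extracellular nucleotides (0.127), Vegfc, a lymphatic growth factor (0.157), C3ar1, the receptor for the C3 fragment C3a (0.162), and Nos3, the endothelial nitric oxide synthase (0.171). The median over all candidates was 0.532. The libraries share their depth and cell makeup, so this is a description without a test.

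C4b and C2 encode the proteins that C1s cuts to form the classical enzyme, and Cfb encodes factor B of the alternative pathway. None of them passed edgeR's test over all genes in any of the 5 contrasts. C4b had 18.2, 8.09 and 10.99 CPM in ERalphaKO E2, 13.9, 11.9, 16.8 and 11.3 CPM in ERalphaKO placebo, 14.9, 9.04 and 21.1 CPM in WT E2, and 9.62 and 16.3 CPM in WT placebo. The groups overlapped throughout, and E2 in WT gave a log2 fold change of 0.21 ± 0.40 (adjusted p = 0.941 by edgeR's quasi-likelihood test). C4a, a close relative whose reads may be hard to separate from those of C4b, was counted at 0.724 to 1.89 CPM. C2 had 7.47, 4.73 and 6.03 CPM in ERalphaKO E2, 4.43, 4.83, 5.31 and 5.03 CPM in ERalphaKO placebo, 6.17, 5.08 and 3.94 CPM in WT E2, and 4.05 and 7.47 CPM in WT placebo. The WT E2 and WT placebo libraries overlapped, the log2 fold change being -0.19 ± 0.28 (adjusted p = 0.916 by edgeR). Cfb was low, at 2.41, 2.84 and 2.35 CPM in ERalphaKO E2, 1.91, 1.71, 4.69 and 2.86 CPM in ERalphaKO placebo, 3.11, 1.84 and 4.198 CPM in WT E2, and 1.88 and 2.78 CPM in WT placebo, again overlapping, with 0.38 ± 0.45 for E2 in WT (adjusted p = 0.892 by edgeR). Cfb and C2 are neighbours, and no label gives the strand setting, so reads at their border may be shared.

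C3 encodes the central component on which all pathways act. Its levels were spread over a 122-fold range between single libraries, and no comparison passed the test. C3 had 57.8, 1.58 and 8.94 CPM in ERalphaKO E2 replicates 1 to 3, 24.0, 4.10, 193 and 35.0 CPM in ERalphaKO placebo replicates 1 to 4, 4.87, 2.165 and 21.3 CPM in WT E2 replicates 1 to 3, and 8.91 and 6.96 CPM in WT placebo replicates 1 and 2. The 2 WT placebo libraries lay inside the range of the WT E2 libraries, and each ERalphaKO group spanned values from below WT placebo to far above it. For E2 in WT the log2 fold change was 0.25 ± 1.55 (adjusted p = 0.987), for E2 in ERalphaKO -1.48 ± 1.28 (0.991), for genotype under placebo 3.02 ± 1.64 (0.637), and for genotype under E2 1.29 ± 1.37 (0.802), all adjusted p by edgeR's quasi-likelihood test. With standard errors this large, the absence of a call does not show that C3 was unaffected by E2.

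The 3 libraries with the highest C3, all of them ERalphaKO, were also the 3 with the highest granulocyte marker sums, in the same order. In order of replicates the granulocyte sums were 7288, 18.5 and 705 CPM in ERalphaKO E2, 326, 28.3, 17310 and 2450 CPM in ERalphaKO placebo, 6.57, 3.77 and 1146 CPM in WT E2, and 900.2 and 74.0 CPM in WT placebo. Of the 14 markers, 2 had positive log2 fold changes for E2 in ERalphaKO, 7 for E2 in WT, 14 for genotype under placebo and 13 for genotype under E2, and the part of these cells in the C3 level was not tested. Without ERalphaKO placebo replicate 3, genotype under placebo gave 1.41 ± 1.33 (adjusted p = 0.748 by edgeR; range over single libraries left out 0.571 to 0.998) and E2 in ERalphaKO 0.13 in place of -1.48. Without both granulocyte-rich libraries, that one and ERalphaKO E2 replicate 1, a setting added after seeing the data, genotype under placebo gave 1.42 ± 1.06, E2 in ERalphaKO -1.92 ± 1.10 and genotype under E2 -0.74 ± 1.08 (adjusted p = 0.674, 0.883 and 0.890 by edgeR). Without ERalphaKO E2 replicate 1, genotype under E2 gave -0.74 in place of 1.29, and without WT E2 replicate 3, E2 in WT gave -1.17 in place of 0.25. The genes that followed C3 most closely by the same measure were Ltb4r1, a leukotriene receptor (SD 0.544), Atp8b4 (0.575), Hp, which encodes haptoglobin (0.650), Hk3, a hexokinase (0.716), and Parvg (0.830), against a median of 2.02.

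Cd55 and Cd59a encode membrane proteins that protect host cells, CD55 by speeding the decay of the enzymes that cut C3 and CD59 by blocking assembly of the membrane attack complex. Cd55 had 23.2, 21.3 and 16.8 CPM in ERalphaKO E2, 25.6, 16.9, 28.9 and 15.7 CPM in ERalphaKO placebo, 12.7, 14.3 and 22.4 CPM in WT E2, and 19.5 and 23.8 CPM in WT placebo. The groups overlapped in every contrast, with -0.40 ± 0.30 for E2 in WT (adjusted p = 0.804) and 0.31 ± 0.27 for genotype under E2 (adjusted p = 0.741, both by edgeR's quasi-likelihood test). Its neighbouring copy Cd55b, listed under the symbol Daf2, had 0 counts in all 12 libraries.

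By group, Cd59a was lowest in WT E2, where C1q was highest, and its coefficient of variation within a group was 3.06% to 9.08%. Among the WT E2 libraries the order was not inverse. Replicate 3 was the highest of them for both Cd59a and the C1q genes, and replicate 2 the lowest for both. Its levels were 49.3, 47.9 and 51.0 CPM in ERalphaKO E2, 40.4, 47.5, 39.8 and 40.7 CPM in ERalphaKO placebo, 22.9, 21.3 and 25.5 CPM in WT E2, and 34.4 and 36.3 CPM in WT placebo. The groups followed each other without overlap, with WT E2 lowest, then WT placebo, ERalphaKO placebo and ERalphaKO E2, although ERalphaKO placebo replicate 2 came close to the lowest ERalphaKO E2 library. As means this was 49.4 ± 1.51, 42.1 ± 3.64, 23.2 ± 2.11 and 35.4 ± 1.39 CPM in ERalphaKO E2, ERalphaKO placebo, WT E2 and WT placebo (SD, n = 3, 4, 3 and 2). E2 against placebo gave a log2 fold change of -0.61 ± 0.10 in WT and 0.23 ± 0.08 in ERalphaKO, opposite directions with a difference of 0.84 ± 0.13. ERalphaKO against WT gave 0.25 ± 0.09 under placebo and 1.09 ± 0.09 under E2. With the macrophage markers as a covariate the E2 value in WT was -0.67 and the genotype value under E2 was 1.15, about as large as without it. Fibrous tissue markers summed to 97380 to 118900 CPM in WT E2 and 139500 to 148600 CPM in WT placebo. In ERalphaKO E2 they summed to 126900 to 139900 CPM. Of the 12, 3 were positive for E2 in WT (median -0.45) and 7 for genotype under E2 (0.10). Their part in the Cd59a level was not tested. Cd59b, the neighbouring mouse copy, was counted at 0.422 to 1.54 CPM, and no label says how reads that match both were assigned. By the same measure the genes closest to Cd59a were Fabp7, a fatty acid binding protein (SD 0.143), Kazn (0.145), Cpz, a carboxypeptidase (0.145), Jph4 (0.161) and Kctd12 (0.172), against a median of 0.470.

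**Figure D3:**
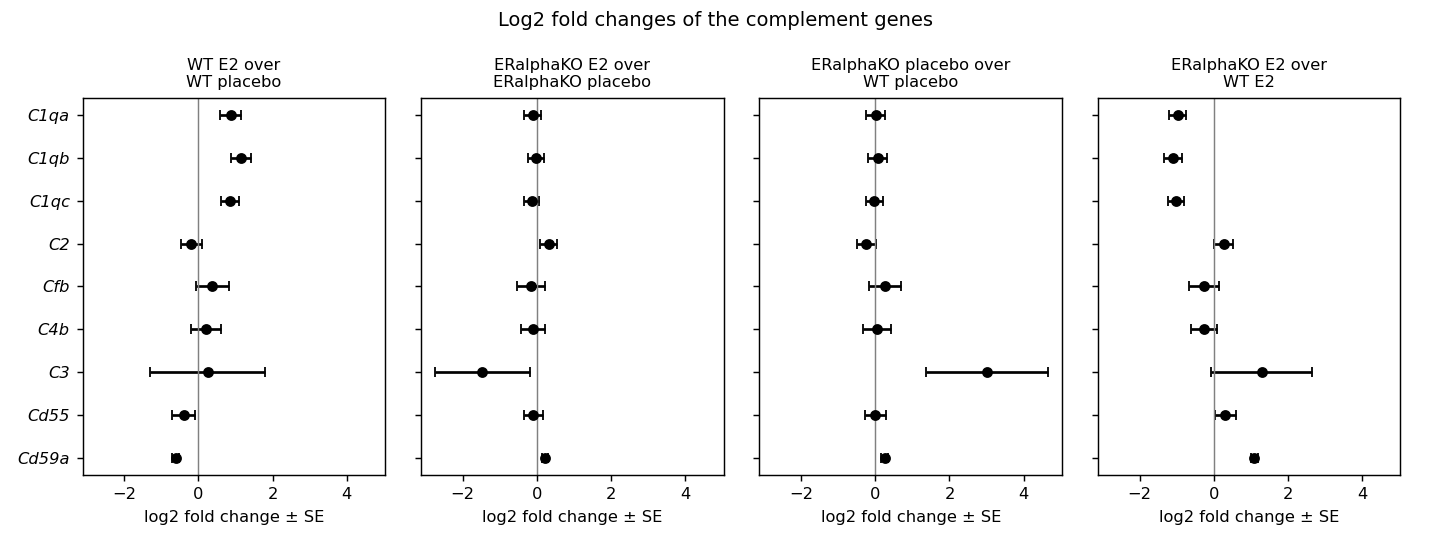
Log2 fold change of the 9 complement genes (points, with 1 SE of the edgeR fit as bars) in the E2 comparison in each genotype and in the genotype comparison under each treatment. The C1q genes and Cd59a lie on opposite sides of 0 in the WT panel and in the panel of ERalphaKO against WT under E2, and the bars of C3 span more than 1 log2 unit to each side.

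Genes whose libraries did not overlap between 2 groups in CPM were also counted. For E2 in WT this held for 4 of the 9 genes, the C1q chains higher and Cd59a lower, where 26.9% of all tested genes did not overlap, 13.2% as higher and 13.7% as lower. In ERalphaKO it held for Cd59a, as higher (background 5.68%, of which 2.58% as higher). Between genotypes it held under placebo for Cd59a, as higher (21.1%, of which 10.5%), and under E2 for the C1q chains as lower and Cd59a as higher (15.9%, with 8.94% as lower and 6.97% as higher). As the genes were chosen on these contrasts, nothing is read from the counts.

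Of 45 further complement genes, 44 were in the table and 31 had enough counts to be tested. By edgeR with adjustment over all genes, 0 of the 31 were called for E2 in WT, where 0.458% of all genes were, while 7 had an unadjusted p under 0.05, against 8.14% of all genes, and DESeq2 called 3, against 1.67%. For E2 in ERalphaKO 0 were called (background 0%), 3 had such a p (5.7%) and DESeq2 called 0 (0.0337%). For genotype under placebo these counts were 0 (0.0135%), 6 (8.93%) and 0 (1.01%), and for the difference of the E2 effect 0 (0.0539%), 5 (6.78%) and 0 (0.688%), with the share of all genes in brackets. For E2 in WT there were 4 calls without WT E2 replicate 2 (0.886% of all genes) and 1 without ERalphaKO placebo replicate 4 (0.21%). For genotype under E2, 0 rose and 2 fell, Fcna and C3ar1, where 0.647% of all genes were called as lower. In that contrast 7 had an unadjusted p under 0.05, against 11.5% of all genes. The count called was at most 2 over the alternatives, which include DESeq2 with its background of 3.35%. The median log2 fold change of the 31 was 0.20 in the E2 comparison in WT and -0.02 between genotypes under E2, against 0.00 over all genes in both. As C3ar1 is also among the genes closest to C1q and was found with these data in view, it is no independent support.

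Fcna encodes ficolin A, a recognition protein of the lectin pathway made by macrophages. It had 5.12, 3.99 and 5.37 CPM in ERalphaKO E2, 5.09, 4.78, 5.50 and 3.02 CPM in ERalphaKO placebo, 13.2, 9.65 and 13.1 CPM in WT E2, and 5.04 and 4.36 CPM in WT placebo. All 3 WT E2 libraries lay above the other 9. Under E2 it fell in ERalphaKO relative to WT (log2 fold change -1.30 ± 0.23, adjusted p = 0.0270), and E2 in WT gave 1.35 ± 0.26 (adjusted p = 0.0644, both by edgeR). The difference of the E2 effect was -1.27 ± 0.34 (adjusted p = 0.393 by edgeR). The call was lost without WT E2 replicate 1 (edgeR adjusted p = 0.112) or 3 (0.0853) and without ERalphaKO E2 replicate 1 (0.104), 2 (0.0737) or 3 (0.0872), in a range of 0.0111 to 0.112 over single libraries left out, and with the macrophage covariate the value was -0.71 (0.216). It was also lost in a fit to the 2 groups alone (0.0523), with skeletal muscle markers as a covariate (0.0664) and without both granulocyte-rich ERalphaKO libraries (0.0807, all by edgeR).

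C3ar1 encodes the receptor for C3a, the small fragment released when C3 is cut. It had 12.7, 9.67 and 13.95 CPM in ERalphaKO E2, 10.8, 13.8, 12.8 and 10.98 CPM in ERalphaKO placebo, 27.8, 17.9 and 28.8 CPM in WT E2, and 13.7 and 10.4 CPM in WT placebo. Again all 3 WT E2 libraries were the highest. Under E2 it fell in ERalphaKO relative to WT (-1.03 ± 0.21, adjusted p = 0.0442), and E2 in WT gave 1.05 ± 0.23 (adjusted p = 0.123, both by edgeR). The call was kept only without WT E2 replicate 2 (0.0115) or ERalphaKO placebo replicate 3 (0.0478) and was lost without any 1 of the 10 other libraries, with an adjusted p of up to 0.154 by edgeR. With the macrophage covariate the value was -0.39 (adjusted p = 0.419 by edgeR), and the call was also lost in a fit to the 2 groups alone (0.117), with the muscle covariate (0.101) and without both granulocyte-rich ERalphaKO libraries (0.134). A replicate block in the fit lost the call as well.

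The other genes named here are among the 2 most counted of each role, and none was called in a contrast by edgeR. C1s and C1ra, the proteases carried by C1q, gave -0.11 ± 0.16 and 0.06 ± 0.14 for E2 in WT. Cfp, which encodes properdin, the stabilizer of the alternative enzyme, had 29.5, 15.5 and 16.0 CPM in ERalphaKO E2, 22.1, 13.4, 41.2 and 17.8 CPM in ERalphaKO placebo, 44.7, 29.2 and 55.5 CPM in WT E2, and 24.2 and 17.1 CPM in WT placebo. Its WT E2 libraries lay above both WT placebo libraries, and the log2 fold change was 1.06 ± 0.47 (adjusted p = 0.604 by edgeR). Clu, which encodes clusterin, a fluid-phase inhibitor of the membrane attack complex, averaged 366 ± 117 CPM in WT E2 and 147 ± 30.3 CPM in WT placebo (SD, n = 3 and 2), with 1.32 ± 0.28 (adjusted p = 0.0886 by edgeR; 0.00810 to 0.700 with single libraries left out). C6 of the membrane attack complex gave -0.15 ± 0.31, Itgb2, the beta chain of the complement receptors 3 and 4, -0.09 ± 0.63, and Cd93, a receptor first described as binding C1q, 0.73 ± 0.25, none called. Apart from C6 and C8g, terminal components were hardly counted, with 2 counts for C8a, 3 for C8b, 4 for C9, 12 for Hc, which encodes C5, and 38 for C7 over all 12 libraries together, and the regulator gene C4bp had none.

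**Figure D4:**
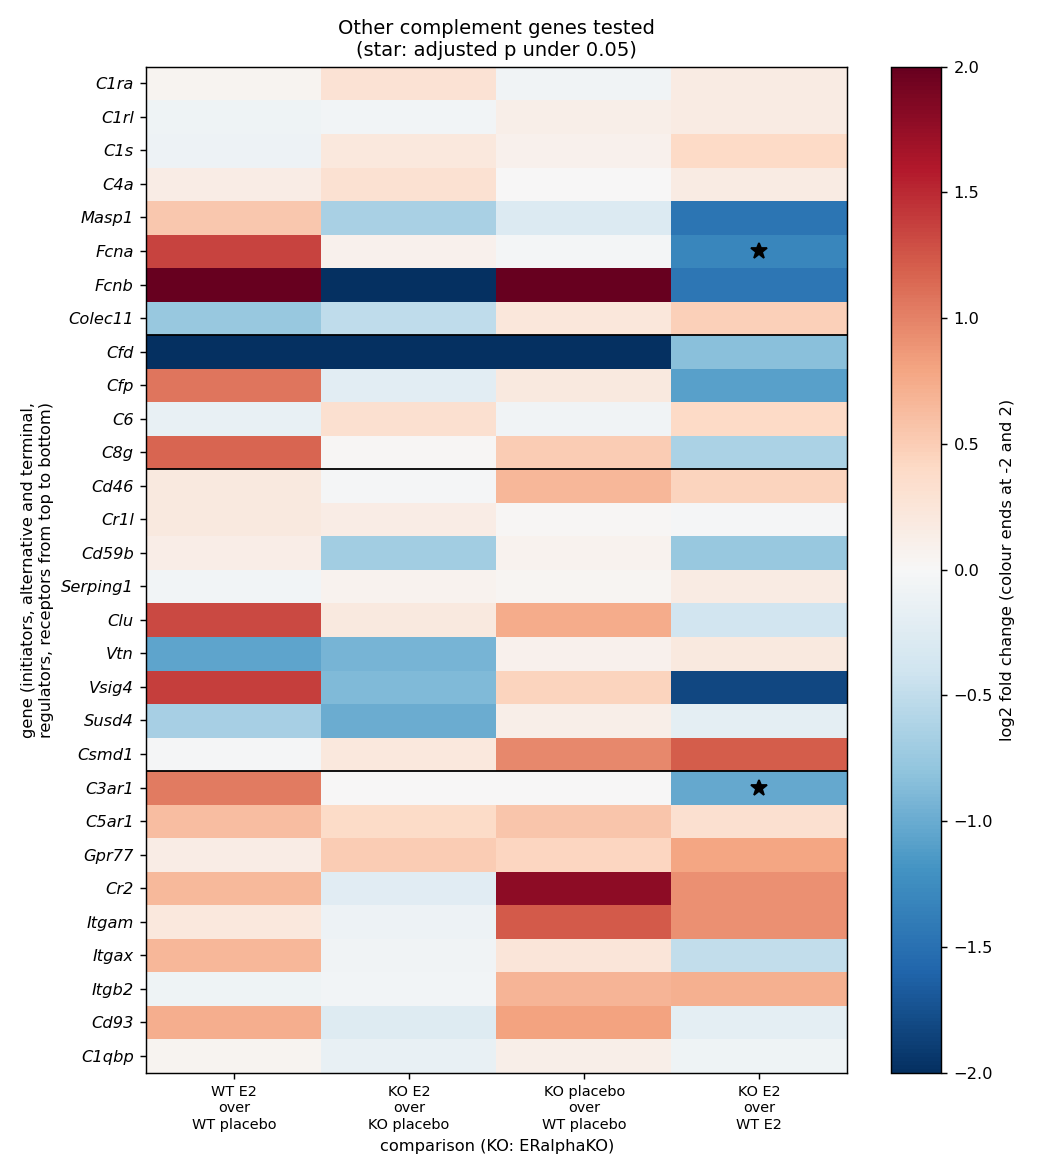
Log2 fold change (colour, which ends at -2 and 2) of other complement genes tested in the 4 comparisons, grouped by role from top to bottom, with a star where edgeR's adjusted p was under 0.05. Of the genes drawn, Fcna and C3ar1 carry a star, both for ERalphaKO against WT under E2.

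Groups that differ in both genotype and treatment were compared in the authors' deposited tables alone. In the authors' deposited table of ERalphaKO placebo against WT E2, the log2 fold change was -1.04 ± 0.24 (SE) for C1qb and 0.86 ± 0.12 for Cd59a. For ERalphaKO E2 against WT placebo, the authors' deposited table gave 0.05 ± 0.16 for C1qb and 0.48 ± 0.10 for Cd59a. C3 stood at 0.88 ± 0.52 for ERalphaKO placebo against WT placebo in the authors' deposited table, where the fit to counts here gave 3.02 ± 1.64. DESeq2 run here gave 3.02 ± 1.47. The unadjusted p for C3 was nearly the same, 0.0905 by the authors' Wald test and 0.0944 by edgeR. How the deposited fold changes were scaled is not known here, so the 2 sizes are not like measures. These comparisons share libraries with those above and are no separate evidence.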

How the data were processed

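RNA was polyA-selected, made into TruSeq libraries and read at 100 bases, per the labels' protocols, which state an RNA integrity of 9 or more. The submitters' processing notes name bcl2fastq 2.17, TopHat and build mm9; how reads were counted, and on which annotation and strand, was not stated. The authors deposited raw counts per gene symbol, which were tested, and a normalized signal (counts divided by a size factor per library), which was not. Their 6 comparison tables hold log2 fold changes, a Wald statistic (a score, not used here) and p-values, in the layout of DESeq2 per the file headers.

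Counts were filtered by edgeR 4.0.16 (filterByExpr, minimum count 10), which kept 14832 of 23284 genes, scaled by TMM and fitted by quasi-likelihood with 1 mean per group over 12 libraries (8 residual degrees of freedom, R 4.3.3), and p-values were adjusted within each contrast. SE is the absolute log2 fold change over the square root of F. A prior count of 2 was added for log2 CPM. Named genes were the 9 members, other complement genes past the threshold or among the 2 most counted of their role, and the 5 genes most like C1q, C3 and Cd59a. One gene that the rule names is not reported here. Alternatives were DESeq2 1.42.0, other scaling and filters, fits to 2 groups, a replicate block, marker covariates and single libraries left out. The members and lists were chosen with earlier results of these data known. The scripts were tested on simulated data.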

Additional observations from a re-analysis of the deposited data

Results flagged for a closer look

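Among the 40 complement genes tested, 7 had a library in the 4 of ERalphaKO placebo that stood apart by a gap past Dixon's critical value for groups of this size, which chance passes in about 1 in 20 groups. Only groups of 4 libraries were examined, so the other groups could not be flagged. Replicate 3, which also had the highest granulocyte marker sum, stood apart for C3 at 193 CPM, for Fcnb, which encodes ficolin B, at 84.0 CPM, for Itgam, the alpha chain of complement receptor 3, at 218.8 CPM and for Itgb2 at 204 CPM. Fcnb is itself among the granulocyte markers. Cd59a stood apart in replicate 2 at 47.5 CPM. Cr1l, which encodes the mouse regulator Crry, was lowest in replicate 4 at 30.4 CPM, and Cr2, complement receptor 2, was highest in replicate 1 at 0.957 CPM, a low level. No cause of these gaps was tested.

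For Cd59a the E2 effect differed in direction between genotypes: all 3 ERalphaKO E2 libraries lay above all 4 ERalphaKO placebo libraries, and all 3 WT E2 libraries lay below both WT placebo libraries. The difference of the 2 effects was 0.84 on the log2 scale, with an SE of 0.13. The gene was chosen for its response in these libraries, so no test is given.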

How the results depend on the processing

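Over the alternatives, the number of members called for E2 in WT (1 in the report) was 3 by DESeq2 (1.67% of all genes). It was 0 in the fit to the 2 groups alone (0.049%), with the macrophage (0.101%) or muscle (0.27%) covariate and with the replicate block (0.121%). With single libraries outside WT placebo left out it was 0 to 2 (0.135% to 0.886%). For other complement genes it was 0, but 3 by DESeq2 and 0 to 4 with single libraries outside WT placebo left out, beside the same shares of all genes. Under E2 between genotypes, members called were 1, but 4 by DESeq2 (3.35% of all genes) and 1 to 4 with single libraries outside WT placebo left out (0.345% to 1.6%). Other complement genes called there were 2, but 0 in the fit to the 2 groups alone (0.47%), with the muscle covariate (0.627%) and without both granulocyte-rich ERalphaKO libraries (0.477%, added after seeing the data). The count was 1 with the macrophage covariate (1.84%). It was also 1 with the replicate block (0.418%), where C3ar1 was lost (-1.03, edgeR adjusted p = 0.0772) and Fcna was not. With single libraries outside WT placebo left out it was 0 to 2. For the difference of the E2 effect, 1 member was called by DESeq2 (0.688% of all genes) and 0 to 1 with single libraries outside WT placebo left out (0.00676% to 0.21%). For the lost calls the cause was not tested.

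Among the genes reported, signs turned only for ones that were not called. C3 for E2 in WT (0.25) was -1.51 with the replicate block, -4.43 with the macrophage and -0.15 with the muscle covariate, and -1.17 to 0.72 with single libraries left out. For E2 in ERalphaKO that range was -3.52 to 0.13, and for genotype under E2 -0.74 to 2.72, with -0.74 also without both granulocyte-rich libraries. C4b for E2 in WT (0.21) was -0.023 with the replicate block, -0.79 with the macrophage covariate and -0.12 to 0.64 with single libraries left out. C2 there ranged from -0.56 to 0.32, and with the macrophage covariate Cfb gave -0.65 and Cfp -0.27. C1qa for E2 in WT (0.87) was -0.01 with the macrophage covariate. Its difference of the E2 effect (-0.98) ranged from -0.99 to 0.04 over the alternatives other than single libraries left out. For genotype under placebo each C1q chain had values on both sides of 0, as had C1qa and C1qb for E2 in ERalphaKO. Cd59a kept its direction, at -0.68 to -0.55 for E2 in WT and 1.03 to 1.16 for genotype under E2 with single libraries left out. Of 15 pairs of libraries with the same replicate number in 2 groups, 9 had deviations correlated above 0.1 (range -0.33 to 0.50, median 0.20). Of 38 pairs with other numbers, 14 did (range -0.50 to 0.52, median -0.03), and 6 of 11 libraries correlated best with their own number. As WT placebo has 2 libraries, their deviations from its mean are opposites, and so are their correlations with any other library. With ERalphaKO placebo replicate 1 these were 0.50 for WT placebo replicate 1 and -0.50 for replicate 2. The 2 sets of pairs are therefore not independent. The main fit did not take the numbers as pairs, and the fit with the replicate block is given beside it. Depth limits single values most where counts were few, as for C3 with 15 counts in ERalphaKO E2 replicate 2 and Cfb with 27 counts in the same library.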

Other observations

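Cfd, which encodes factor D (adipsin), the protease that cuts factor B and a product of fat cells, was at 0 to 2.13 CPM in 11 libraries and higher in 1. It had 0.301, 0.420 and 0 CPM in ERalphaKO E2, 0.598, 0.0451, 2.13 and 0.804 CPM in ERalphaKO placebo, 1.05, 0.0941 and 0 CPM in WT E2, and 0.587 and 24.4 CPM in WT placebo. The 9 adipocyte markers, of which Cfd itself is 1, summed to 6.31 to 19.6 CPM in ERalphaKO E2, 15.2 to 68.4 CPM in ERalphaKO placebo, 5.37 to 13.3 CPM in WT E2 and 14.2 to 94.7 CPM in WT placebo. The library with 68.4 CPM, ERalphaKO placebo replicate 3, had 2.13 CPM of Cfd and the one with 94.7 CPM, WT placebo replicate 2, had 24.4 CPM. As Cfd is part of these sums, they are no independent measure beside it, and the part of fat cells in the Cfd level was not tested. Vsig4, a macrophage receptor for C3 fragments, had 1.39, 4.84 and 0.920 CPM in ERalphaKO E2, 5.98, 5.32, 3.18 and 2.33 CPM in ERalphaKO placebo, 12.04, 10.8 and 1.23 CPM in WT E2, and 3.70 and 2.49 CPM in WT placebo. WT E2 replicate 3, among the highest for C1q, was among the lowest for Vsig4.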
